A study of Mus musculus with 8 samples.

Results

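The genes described here had almost no reads in control mouse atria and were read in every library of Chd4 knockout (KO) atria. They were chosen on CPM, the count of a gene divided by the total count of its library and scaled to 1000000. A gene was taken when its mean over the 4 control libraries lay under 0.1 CPM, it reached 0.2 CPM in each of the 4 KO libraries, and it was not on chromosome Y. These thresholds left 111 of the 54532 genes in the table. Control values under 0.1 CPM were common, with 32569 genes outside chromosome Y below that line, and 0.341% of them reached the KO threshold. The difference between the groups is what chose the genes, so their levels are given as a description, with no test.

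All libraries came from Chd4flox/flox mice injected on postnatal day 2 (P2) with an AAV9 vector, and poly(A) RNA of the dissected and frozen atria was sequenced. KO mice received AAV9:Nppa-Cre (4 libraries) and control mice received AAV9:Nppa-EGFP (4 libraries). The promoter of Nppa, the gene of atrial natriuretic peptide, drives the vector in atrial muscle cells, whereas the labels give the cell type of the libraries as mixed, so cells that the vector does not target were also read. KO mice alone carried Cre, EGFP was given to controls alone, and the numbers in front of the library names never occur in both groups, so an effect of any of these and the loss of Chd4 cannot be told apart. Neither the age at collection nor the number of mice behind a library is given in the sources used here.

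CHD4 is the ATP-dependent motor of the NuRD complex, which slides nucleosomes and also carries histone deacetylases. The complex is known for keeping genes of other tissues and of other stages of development inactive in a differentiated cell, and for holding down genes of other muscle types in the heart. The title of the series sets CHD4 beside TBX5, a T-box transcription factor of the atrium.

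The KO libraries held 34002292 to 38228982 counts in all, against 39804625 to 40588007 per control library, so 0.2 CPM corresponded to 7 or 8 counts in a KO library. Chd4 itself had 190 ± 14.9 CPM in KO atria and 284 ± 14.4 CPM in control atria (SD, n = 4 each), a log2 fold change of -0.66 (edgeR quasi-likelihood test, adjusted p = 1.86e-05), with KO lower in 4 of 4 libraries. Markers of cardiomyocytes summed to 61867 to 73199 CPM in KO libraries, against 88429 to 95848 CPM in control libraries, while fibroblast markers summed to 7700 to 10201 CPM in KO libraries and 6648 to 7224 CPM in control libraries. The sums were also higher without overlap for endothelial markers (2065 to 2293 CPM in KO, against 1707 to 1875 CPM in control), macrophage markers (357 to 467 CPM in KO, against 275 to 336 CPM in control) and epicardial and mesothelial markers (744 to 900 CPM in KO, against 517 to 669 CPM in control). In such bulk tissue, fewer cells of a type and less RNA per cell cannot be told apart, and the part of these shifts in the results below was not tested. The libraries were of mixed sex: Y-linked genes summed to 10.1 CPM in KO 2 and to 12.0 and 13.8 CPM in controls 1 and 2, against 221 to 262 CPM in the others. KO 3 had both 228 CPM of Y-linked genes and 31.6 CPM of Xist, a transcript of the inactive X chromosome. Without KO 2 and controls 1 and 2 the same rule gave 150 genes, 91 of them among the 111.

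Genes that were silent in control and read in KO outnumbered the opposite kind. The mirrored rule, silent in KO and at 0.2 CPM or more in each control library, gave 15 genes, which is 0.047% of 31908 genes silent in KO. Among the genes silent in control, 737 reached 0.2 CPM in exactly 1 KO library, 213 in 2, 81 in 3 and 111 in 4. For the mirrored rule those numbers were 355, 76, 34 and 15. The mirrored number was 33 without control 2, 26 without control 3 and 45 without KO 2 and controls 1 and 2, against 150 in the KO direction in the last case. With all 8 libraries, in the KO direction more genes were read in 4 libraries than in 3, and in the control direction fewer.

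**Figure D1:**
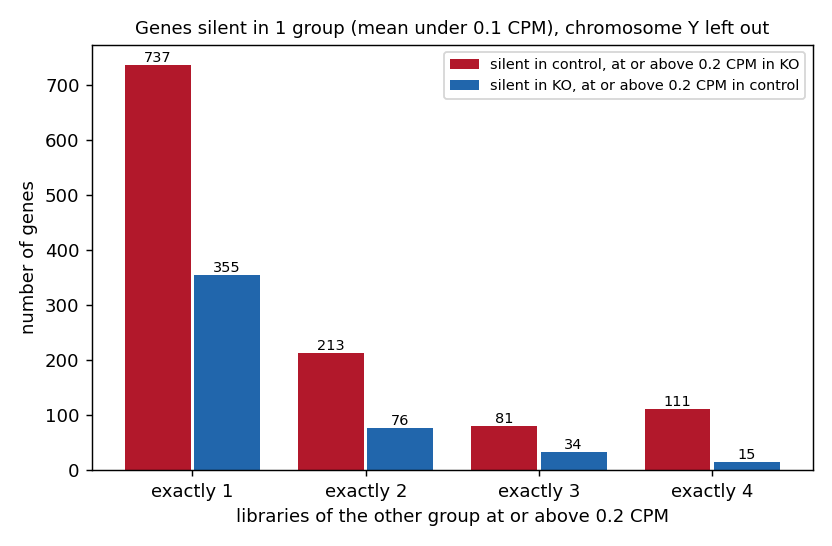
Number of genes silent in control (KO bars, left of each pair) or silent in KO (control bars, right of each pair) by how many libraries of the other group held at least 0.2 CPM. The KO bar at 4 libraries holds 111 genes and the control bar 15.

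The list was made of low transcripts with a few exceptions. The KO mean lay under 0.5 CPM in 50 members, from 0.5 to 1 CPM in 40 and at 1 CPM or more in 21, with a median of 0.531 CPM, whereas the genes that passed the edgeR filter on low counts had a median of 12.9 CPM in KO. The members together took 3503, 4409, 4189 and 3929 counts in KO 1 to 4 and 251, 258, 284 and 263 counts in control 1 to 4, which in KO is a summed level of 103 to 119 CPM. The 5 highest members, Gm15398, Tcfl5, Epx, Kank4os and Nat3, held 36.8% of the summed KO mean. Control libraries held 0 counts of 12 members in all 4 libraries, 1 to 3 counts in sum of 11 members and 4 to 16 counts in sum of the other 88. The ratio of pooled KO to pooled control CPM had a median of 8.40, with genes at 0 in control set at a floor of 3 counts per control library.

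**Figure D2:**
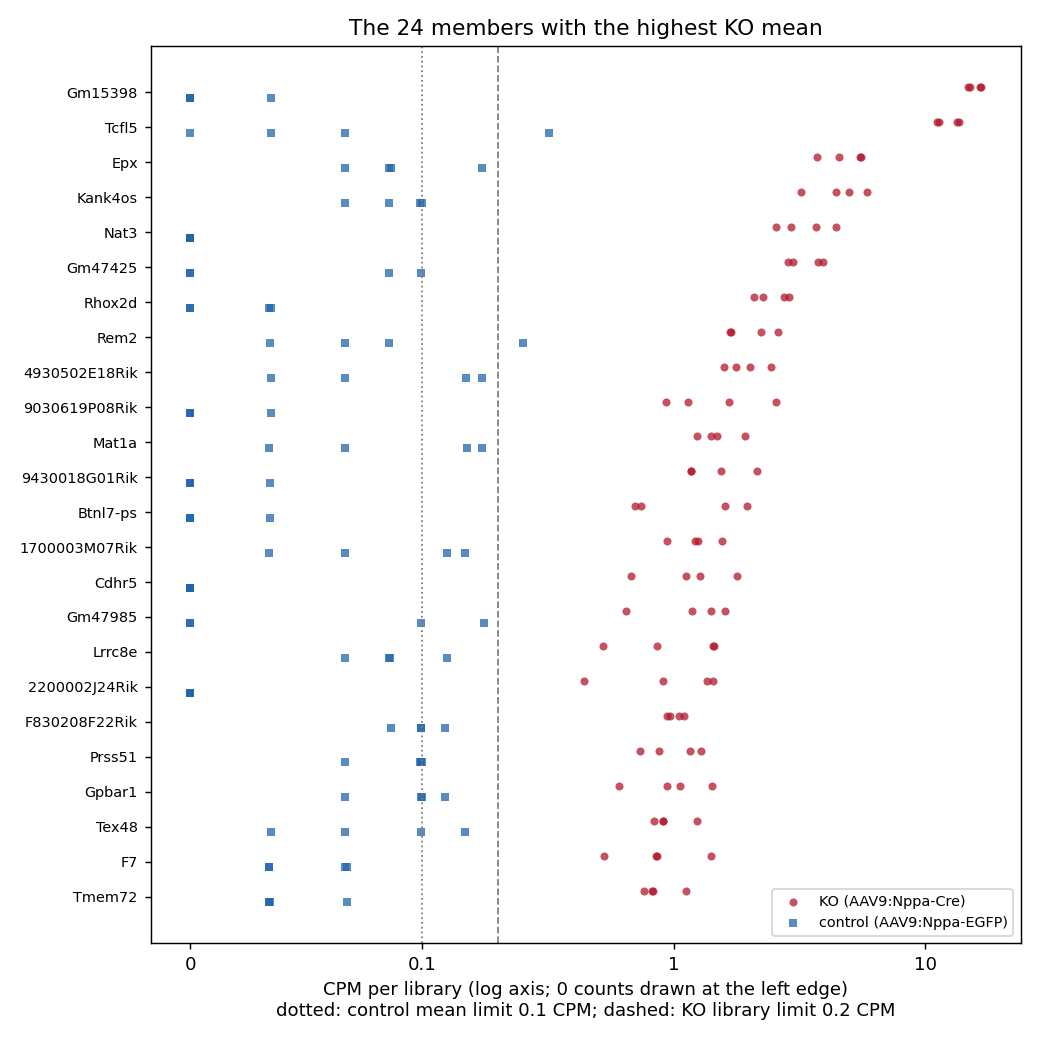
CPM in every library (log axis) of the 24 members with the highest KO mean, KO as circles and control as squares. Each of the 24 genes has all KO circles to the right of the dashed line at 0.2 CPM and of its own control squares, and 0 counts are drawn at the left edge.

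The KO libraries, each at 0.2 CPM or more by the rule, differed among themselves to varying degrees. The highest KO library exceeded the lowest by less than 2 times in 62 members and by 3 times or more in 11, with a median ratio of 1.93. KO 1 held the lowest KO value of 42 members and KO 4 that of 34, while KO 3 held the highest of 39 and KO 2 that of 31. KO 2, the KO library with few Y-linked counts, had a median of 0.981 times the mean of the other KO libraries. The most uneven member was Gm16425, a processed pseudogene, with 17, 28, 39 and 8 counts in KO 1 to 4 and 3, 0, 7 and 5 counts in control 1 to 4.

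Of the 111 members, 81 passed the edgeR filter and 30 did not. A silent gene can pass that filter through the KO libraries alone, so the calls of those 81 carry no further information. Over the whole table edgeR called 2677 of 18033 tested genes higher in KO (14.8%) and 2355 lower (13.1%). The KO libraries all lay above the control libraries in 111 of 111 members, which the thresholds make nearly certain, and in 20.4% of all tested genes.

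The leading member was a long noncoding RNA with no known role in these sources. Gm15398, a lincRNA at chr10:73201399-73327175 (GRCm38, minus strand), had 502, 637, 532 and 596 counts in KO 1 to 4 and 1, 0, 0 and 0 counts in control 1 to 4. Its level was 15.7 ± 0.96 CPM in KO, against 0.0063 ± 0.013 CPM in control (SD, n = 4 each), and the pooled ratio of 2540 had a counting interval of 455 to 100380 (exact 95%, counting error only). It ranked 8368 by KO mean over the whole table. The gene lies inside Pcdh15, which encodes a cadherin of the inner ear and retina, on the opposite strand, and shares no exon base with it. Pcdh15 had 8.87 ± 1.18 CPM in KO, against 5.40 ± 1.04 CPM in control (log2 fold change 0.63, edgeR adjusted p = 0.00852, KO mean higher).

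Textbook tissue or process could be given to 48 members, 44 of them among the 55 protein-coding ones, in 8 groups made after the members were known. Their usual sites were scattered over the body. Testis and germ line held 10 members, liver and xenobiotic metabolism 8, blood and thymus 7, kidney tubule 5, the epithelia of stomach, gut and skin 5, nerve, muscle and sense organs 4 and early development 3, with 6 others. The remaining 63 members were mostly noncoding RNAs and pseudogenes.

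**Figure D3:**
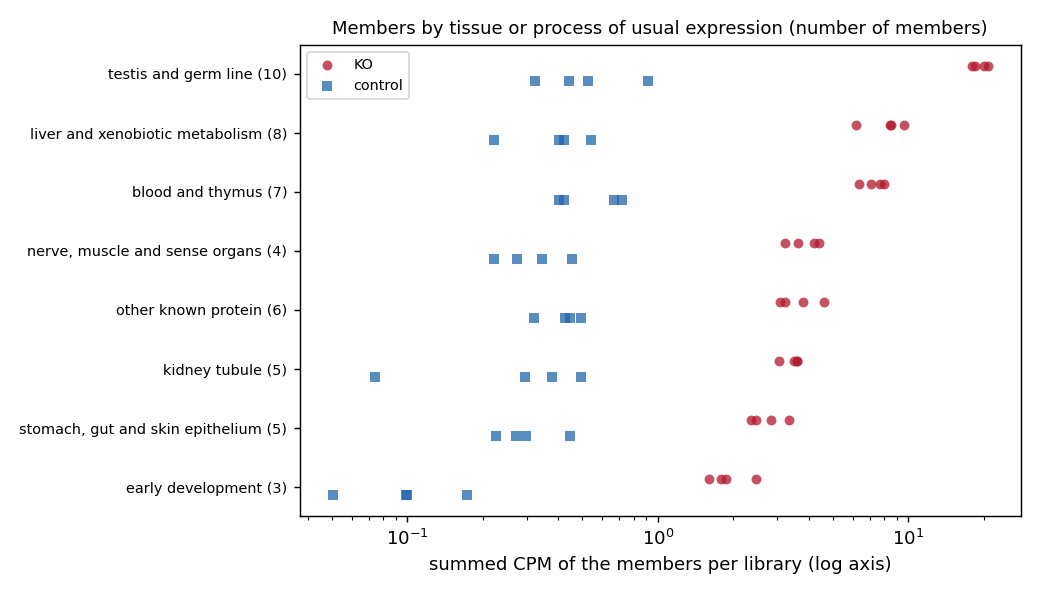
Summed CPM of the members of each group in every library (log axis), KO as circles and control as squares, with the number of members in brackets. Testis and germ line members sum to 18.0 to 20.8 CPM in KO, against 0.323 to 0.915 CPM in control, the highest KO sums of the 8 groups. Tcfl5 alone has a KO mean of 12.4 CPM, so this rank rests largely on that gene.

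Germ line genes gave the most abundant coding member. Tcfl5 encodes a basic helix-loop-helix transcription factor that spermatocytes need in meiosis. It had 462, 425, 471 and 412 counts in KO 1 to 4 and 1, 2, 0 and 13 counts in control 1 to 4, which is 12.4 ± 1.29 CPM in KO, against 0.099 ± 0.15 CPM in control (SD, n = 4 each). The KO libraries lay close together, and control 4 alone held 13 of the 16 control counts. Its pooled ratio was 124 (exact 95% counting interval 76.1 to 217). Col9a3, whose exons share 234 bases with those of Tcfl5 on the other strand, had 0.909 ± 0.36 CPM in KO, against 0.776 ± 0.059 CPM in control, with no call (edgeR adjusted p = 0.738). The RefSeq promoter window of Tcfl5 (GRCm38.p6, chr2:180642642-180642941, minus strand, 250 bases before to 50 after the start site) is shown because it holds 35 CpG dinucleotides, in capitals, the most of any member with a window.
Tcfl5: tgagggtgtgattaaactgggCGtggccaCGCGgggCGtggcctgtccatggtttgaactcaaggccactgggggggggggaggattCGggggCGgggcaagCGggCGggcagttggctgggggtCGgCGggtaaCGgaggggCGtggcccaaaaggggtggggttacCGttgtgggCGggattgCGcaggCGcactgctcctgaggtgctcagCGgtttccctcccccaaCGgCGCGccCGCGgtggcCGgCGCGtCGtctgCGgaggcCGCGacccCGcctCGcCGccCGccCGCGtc

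The Rhox cluster, a row of homeobox genes on the X chromosome used in testis, ovary and placenta, gave 3 members of one subfamily. Rhox2d had 77, 80, 97 and 104 counts in KO 1 to 4 and 1, 0, 1 and 0 counts in control 1 to 4. Its pooled ratio of 201 had a counting interval of 55.1 to 1660. Rhox2h had 11, 26, 27 and 16 counts and Rhox2g 9, 15, 14 and 10 counts in KO 1 to 4, with 0 counts of either in every control library, so they were at least 7.42-fold and 4.46-fold higher in KO against the floor of 3 counts per control library. The other copies of the subfamily fell short of the thresholds: summed over libraries, Rhox2a had 32 counts in KO and 0 in control, Rhox2b 21 and 0, Rhox2f 18 and 0, Rhox2c 16 and 1, and Rhox2e 11 and 0. The longest GENCODE transcripts of these 8 genes were 92.7% to 99.4% identical over aligned bases in 28 pairs, so reads may have been split or shared between copies and the split among them is uncertain. Rhox5, a homeobox gene of Sertoli cells, was not silent in control and rose, at 3.16 ± 0.69 CPM in KO, against 0.694 ± 0.27 CPM in control (log2 fold change 2.10, edgeR adjusted p = 0.000251). Of the 42 Rhox genes in the table, 28 had 0 counts in all 8 libraries.

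**Figure D4:**
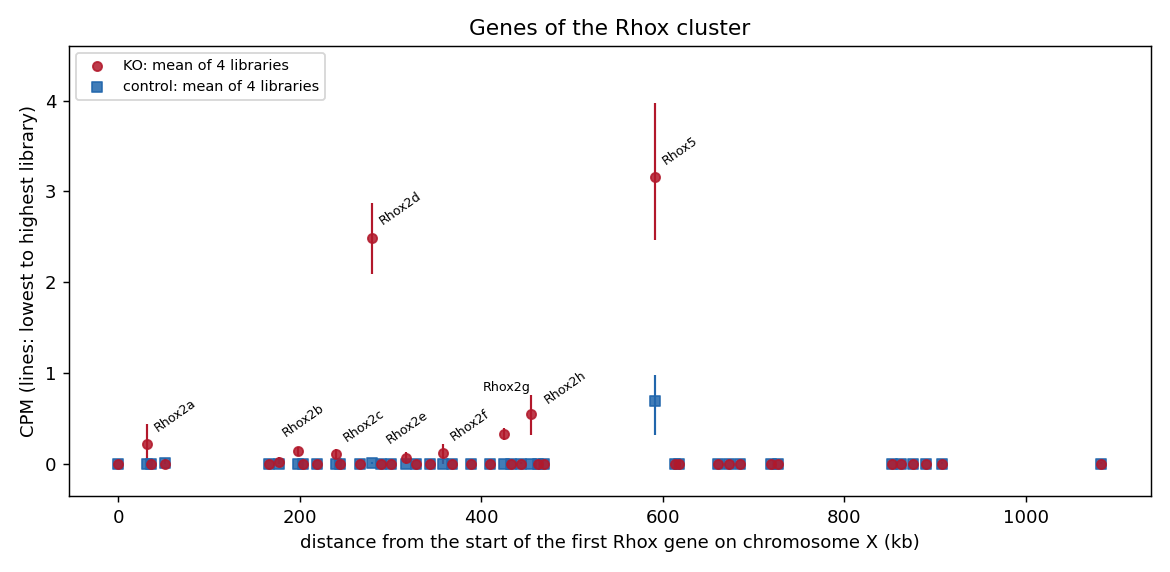
Mean CPM of 4 libraries (points) and the lowest to highest library (lines) for the Rhox genes by distance along chromosome X, KO as circles and control as squares. Rhox2d at 2.49 CPM and Rhox5 at 3.16 CPM stand above the rest in KO, and the other Rhox2 copies lie between 0.0748 and 0.552 CPM.

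The promoter windows of the 3 Rhox2 members are shown so that the copies can be compared, with CpG dinucleotides in capitals. They lie on chromosome X (GRCm38.p6) at chrX:37493160-37493459 (Rhox2d, plus strand), chrX:37643421-37643720 (Rhox2g, minus strand) and chrX:37673228-37673527 (Rhox2h, minus strand).
Rhox2d: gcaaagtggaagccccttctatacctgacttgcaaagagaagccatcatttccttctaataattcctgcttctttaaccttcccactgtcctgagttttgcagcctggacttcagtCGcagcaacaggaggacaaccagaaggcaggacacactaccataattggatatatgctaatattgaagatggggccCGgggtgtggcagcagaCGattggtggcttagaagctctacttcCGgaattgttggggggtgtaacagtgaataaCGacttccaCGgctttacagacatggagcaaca
Rhox2g: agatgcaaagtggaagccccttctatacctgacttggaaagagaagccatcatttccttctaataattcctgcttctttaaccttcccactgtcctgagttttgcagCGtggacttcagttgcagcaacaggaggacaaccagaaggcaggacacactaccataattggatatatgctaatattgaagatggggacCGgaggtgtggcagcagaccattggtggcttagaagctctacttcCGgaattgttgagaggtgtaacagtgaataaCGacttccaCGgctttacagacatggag
Rhox2h: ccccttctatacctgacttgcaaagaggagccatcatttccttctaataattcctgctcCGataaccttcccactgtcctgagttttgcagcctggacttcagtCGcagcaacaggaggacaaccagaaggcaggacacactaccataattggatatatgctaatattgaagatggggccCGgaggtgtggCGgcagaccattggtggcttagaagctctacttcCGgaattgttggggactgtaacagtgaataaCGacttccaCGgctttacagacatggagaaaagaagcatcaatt
Aligned end to end, Rhox2d and Rhox2g matched at 288 bases with 7 mismatches, Rhox2d and Rhox2h at 278 with 10, and Rhox2g and Rhox2h at 271 with 13, with 10, 24 and 32 gap bases in that order. The windows thus mismatch at few aligned bases. The KO mean per gene was 2.49 CPM for Rhox2d, 0.552 CPM for Rhox2h and 0.332 CPM for Rhox2g, and the split of reads among these copies is uncertain.

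The other germ line members were lower. Prss51, a serine protease gene of the testis, had 25, 49, 31 and 42 counts in KO 1 to 4 and 4, 2, 4 and 4 counts in control 1 to 4. Tex48, a testis-expressed gene, had 42, 32, 32 and 33 counts in KO and 1, 4, 2 and 6 in control. Iqcf5, from a family of testis genes with calmodulin-binding motifs, had 7, 8, 14 and 13 counts in KO and 0 in every control library. Ly6k, which sperm need to migrate through the oviduct, averaged 0.660 CPM in KO, against 0.0931 CPM in control, Pld6, whose mitochondrial enzyme acts in piRNA biogenesis, 0.360 CPM in KO, against 0.0808 CPM in control, and Fbxw18, an F-box gene of the oocyte, 0.317 CPM in KO, against 0.0994 CPM in control. Among the 30 other genes of germline genome defence, 4 of 9 tested were called higher and 2 lower (edgeR), against 14.8% and 13.1% of all tested genes, with a median log2 fold change of 1.01 beside 0.01 over all tested genes. Mov10l1, the helicase of piRNA precursors, fell to 9.50 ± 2.03 CPM in KO atria, against 34.3 ± 2.57 CPM in control atria (log2 fold change -1.93, edgeR adjusted p = 3.81e-06), so the genes of that list did not move one way. The lists of meiosis, spermatid and sperm, and oocyte genes held 0 members, but only 25, 30 and 18 of their genes were silent in control, so at the overall share of 0.341% a count of 0 says little. Of 9 spermatid markers 7 were at 0 in every KO library, and the 9 together summed to 0.118 to 0.445 CPM in KO, against 0.273 to 0.377 CPM in control.

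Enzymes of drug and metabolite handling formed the next group. Nat3, an arylamine N-acetyltransferase, had 87, 112, 156 and 133 counts in KO 1 to 4 and 0 in every control library, at least 45.6-fold higher in KO against the floor. It was the highest member with no control count. Its neighbour Nat1 had 9, 23, 15 and 15 counts in KO and 0, 2, 3 and 2 in control, and Nat2, the third gene of the family, was not silent and rose to 2.98 ± 0.096 CPM in KO, against 1.90 ± 0.42 CPM in control (log2 fold change 0.57, edgeR adjusted p = 0.0369). Mat1a, the methionine adenosyltransferase of the liver, had 48, 57, 68 and 45 counts in KO and 6, 7, 1 and 2 in control. F7, coagulation factor VII, had 18, 54, 30 and 31 counts in KO and 2, 2, 1 and 1 in control. The groups were far apart for these genes, but control was not empty. Akr1c12, an aldo-keto reductase, had 13, 48, 25 and 33 counts in KO and 2, 3, 5 and 2 in control, and its longest transcript was 94.6% identical over aligned bases to that of the more abundant Akr1c13, so shared reads cannot be told apart. Akr1c13 had 14.0 ± 1.67 CPM in KO, against 1.68 ± 0.24 CPM in control (log2 fold change 2.98, edgeR adjusted p = 6.39e-08). Cyp1a1, a cytochrome P450 induced by aryl hydrocarbons, Gsta2, a glutathione transferase, and Slc2a2, the glucose transporter GLUT2 of liver and beta cells, averaged 0.420, 0.412 and 0.285 CPM in KO, against 0.0249, 0.0495 and 0.0681 CPM in control.

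Liver markers varied between libraries. Alb, the gene of serum albumin, had 518, 6, 3 and 2 counts in KO 1 to 4 and 0, 10, 0 and 2 counts in control 1 to 4. Fgb, a fibrinogen gene, had 39, 3, 0 and 0 counts in KO and 0 in every control library. The 7 liver markers together summed to 64.1 to 118 CPM in KO libraries, against 75.2 to 132 CPM in control libraries, mostly from Ahsg. The 6 without Ahsg summed to 22.5, 2.07, 1.87 and 1.19 CPM in KO 1 to 4 and 1.21, 1.71, 0.887 and 1.36 CPM in control 1 to 4. The part of such markers in the levels of these members was not tested. The list of 150 liver and kidney enzymes and secreted proteins holds the members Akr1c12, Nat1, Nat3 and Sult2b1. Of its other genes, 6 of 23 tested were called higher and 2 lower by edgeR, against 14.8% and 13.1% of all tested genes (median log2 fold change 0.37, beside 0.01 over all tested genes).

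Genes of the kidney tubule were read at about 1 CPM or less. Cdhr5, a protocadherin of brush border microvilli in kidney and intestine, had 23, 43, 63 and 46 counts in KO 1 to 4 and 0 in every control library, at least 16.3-fold higher in KO against the floor. Tmem72, a membrane protein gene of the kidney, had 28, 43, 27 and 30 counts in KO and 2, 1, 1 and 1 in control. Slc5a2 (the glucose transporter SGLT2) and Avpr2 (the vasopressin V2 receptor) averaged 0.530 and 0.355 CPM in KO, against 0.0997 and 0.0992 CPM in control. For Avpr2, 81.3% of the exon bases lie in exons of Arhgap4 on the other strand, which had 8.59 ± 1.36 CPM in KO, against 4.62 ± 1.00 CPM in control, so its reads cannot be told apart from those of Arhgap4 unless strand was counted, and the strand setting was not given in the sources used here. Likewise 20.6% of the exon bases of Slc5a2 lie in exons of BC017158. Umod and Kap, abundant transcripts of the kidney, were at 0 counts in all 8 libraries, and the 8 kidney markers, added after the values were seen, summed to 16.4 to 26.7 CPM in KO libraries and 15.1 to 18.5 CPM in control libraries, mostly from Lrp2.

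Epithelial genes of stomach, gut and skin stayed under 1 CPM. Sh2d6, an adaptor gene of tuft cells, had 19, 30, 32 and 24 counts in KO 1 to 4 and 2, 5, 0 and 1 counts in control 1 to 4. Psca, a surface protein of stomach and prostate, had 29, 30, 17 and 19 counts in KO and 1, 0, 1 and 6 in control. Gkn2, a gastrokine of the stomach surface, was uneven, with 9, 16, 33 and 11 counts in KO and 0, 0, 2 and 0 in control. Sult2b1, a sulfotransferase of skin, and Cldn23, a claudin, averaged 0.515 and 0.362 CPM in KO, against 0.0989 and 0.0995 CPM in control. Of the list of gut, pancreas and stomach genes, the 53 other than Gkn2 summed to 11.3 to 15.4 CPM in KO libraries and 4.15 to 6.18 CPM in control libraries. Among these 53, 1 of 9 tested was called higher and 0 lower by edgeR, against 14.8% and 13.1% of all tested genes. The median log2 fold change of the 9 was -0.12, beside 0.01 over all tested genes. The gene called was Vil1, which encodes the villin of microvilli, with 7.01 ± 1.26 CPM in KO, against 0.646 ± 0.12 CPM in control (log2 fold change 3.35, edgeR adjusted p = 4.76e-07). Gkn1, the neighbouring gastrokine, had 33 counts in KO and 4 in control over all libraries, and Atp4a, the proton pump of parietal cells, 43 in KO and 4 in control. Other genes of the list went the other way, such as Lct with 10 counts in KO and 52 in control, and Sst with 31 and 90. A narrower set of 7 stomach and gut epithelium markers, added after the values were seen, summed to 0 to 0.118 CPM in KO libraries and 0.0251 to 0.124 CPM in control libraries.

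Epx, which encodes the peroxidase of eosinophil granules, was the third most abundant member. It had 126, 210, 161 and 202 counts in KO 1 to 4 and 3, 7, 2 and 3 counts in control 1 to 4, which is 4.83 ± 0.88 CPM in KO, against 0.0932 ± 0.055 CPM in control (SD, n = 4 each). The pooled ratio was 52.2 (exact 95% counting interval 31.4 to 93.8), and the KO libraries were all far above the control libraries. The other 7 eosinophil markers examined, added after the values were seen, summed to 0.324 to 0.911 CPM in KO, against 0.296 to 0.603 CPM in control, with Prg3 and Ear6 at 0 in every KO library. Prg2, the eosinophil major basic protein, had 1, 3, 5 and 9 counts in KO and 8, 1, 2 and 7 in control. Of the list of eosinophil, neutrophil and mast cell genes, the 30 other than Epx summed to 8.64 to 12.6 CPM in KO and 8.40 to 12.1 CPM in control. The promoter window of Epx (chr11:87875487-87875786, GRCm38.p6, minus strand) holds 5 CpG dinucleotides, in capitals, and is shown beside that of Tcfl5 as an example of the CpG-poor windows most members have.
Epx: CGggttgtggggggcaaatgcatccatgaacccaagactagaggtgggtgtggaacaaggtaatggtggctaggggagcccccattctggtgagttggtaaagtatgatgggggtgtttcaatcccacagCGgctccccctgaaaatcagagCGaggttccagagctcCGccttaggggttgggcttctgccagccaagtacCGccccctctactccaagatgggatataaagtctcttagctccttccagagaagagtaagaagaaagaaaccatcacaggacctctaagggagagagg

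Some members are T cell receptor segments. The members Trbv6, Trbv12-1, Trbj2-7 and Trbj1-7 are variable and joining segments of the beta chain locus on chromosome 6, with KO means of 0.591, 0.433, 0.363 and 0.264 CPM and control means of 0.0742, 0.0867, 0.0618 and 0.0620 CPM. Slc46a2, a transporter gene of thymic stroma, had 28, 12, 13 and 18 counts in KO 1 to 4 and 5, 2, 2 and 4 in control 1 to 4. The 10 thymus and T cell markers, all detected, summed to 115, 179, 102 and 72.9 CPM in KO, against 11.7, 39.1, 76.6 and 23.0 CPM in control, and 4 of the 9 tested were called higher by edgeR and 0 lower, against 14.8% and 13.1% of all tested genes. The sums overlapped, with control 3 above KO 4. Rag1, the recombinase of developing lymphocytes, led that list with 27.3 to 69.8 CPM in KO, against 3.22 to 29.5 CPM in control. Their part in the levels of these 5 members was not tested. Fcrl1, a receptor of B cells, averaged 0.299 CPM in KO, against 0.0932 CPM in control, and the sum of 6 B cell markers was 3.74 to 20.6 CPM in KO, against 4.00 to 4.87 CPM in control.

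Regulators of early development were among the members at low levels. Foxh1, the partner of SMAD proteins in Nodal signalling, was even across KO, with 29, 33, 28 and 27 counts, and had 0 counts in every control library, at least 10.9-fold higher in KO against the floor. T, the gene of brachyury, the T-box factor of embryonic mesoderm and notochord, had 19, 48, 24 and 23 counts in KO 1 to 4 and 1, 0, 1 and 1 in control 1 to 4. Onecut2, a homeobox factor of liver and neurons, had 13, 13, 14 and 8 counts in KO and 1, 4, 6 and 3 in control. The lists of Hox genes and of other homeobox and Pax factors held 0 members among 32 and 59 genes silent in control, numbers at which 0.341% gives less than 1 gene.

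Members used in nerve, muscle and sense organs were 4. Rem2, a small GTPase that inhibits voltage-gated calcium channels, had 76, 99, 60 and 61 counts in KO 1 to 4 and 10, 1, 3 and 2 in control 1 to 4. Mcoln3, the channel TRPML3 of inner ear hair cells, had 37, 23, 29 and 37 counts in KO and 4, 1, 5 and 1 in control. Chrne, the adult subunit of the muscle acetylcholine receptor, and Crb1, a polarity protein of the retina, averaged 0.431 and 0.495 CPM in KO, against 0.0808 and 0.0742 CPM in control. Chrne was the member among 52 skeletal muscle genes, of which 11 were silent in control; 11 of 41 tested were called higher and 6 lower by edgeR, against 14.8% and 13.1% of all tested genes. None of the 2019 olfactory and vomeronasal receptor genes silent in control was a member, against 0.341% of all genes silent in control. Of the 2041 such receptor genes in the table, 1814 had 0 counts in all 8 libraries. The lists for neuronal synapse and axon, lens and photoreceptor, and keratins and epidermis also held 0 members, with 6, 34 and 148 genes silent in control, at which 0.341% gives less than 1 gene.

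The 6 others with a known protein included Lrrc8e, a subunit of volume-regulated anion channels, at 1.07 ± 0.45 CPM in KO, against 0.0809 CPM in control, and Gpbar1, a membrane receptor for bile acids, at 1.01 ± 0.33 CPM in KO, against 0.0931 CPM in control. Xlr3c, of a lymphocyte-regulated family on the X chromosome, had 15, 13, 14 and 14 counts in KO 1 to 4 and 1, 2, 0 and 0 in control 1 to 4. Ccno, a cyclin-like gene of multiciliated cells, Mmel1, a membrane metallopeptidase, and Adtrp, a lipid hydrolase, averaged 0.336, 0.560 and 0.321 CPM in KO, against 0.0562, 0.0743 and 0.0989 CPM in control.

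By class, 55 of 6394 protein-coding genes silent in control were members (0.860%), beside 22 of 4114 lincRNAs (0.535%), 11 of 1932 antisense RNAs (0.569%) and 10 of 10601 pseudogenes (0.0943%). The share was thus lowest for pseudogenes among these classes. The noncoding members included Kank4os, antisense to Kank4, with 109, 225, 176 and 160 counts in KO 1 to 4 and 4, 2, 4 and 3 in control 1 to 4. Kank4 itself was not called, with 2.62 ± 0.74 CPM in KO, against 1.91 ± 0.25 CPM in control (edgeR adjusted p = 0.221). Gm47425, a lincRNA, had 97, 114, 139 and 136 counts in KO and 0, 4, 3 and 0 in control. The antisense RNA 9430018G01Rik had 40, 45, 76 and 56 counts in KO and 0, 1, 0 and 0 in control. For other noncoding members the overlapping gene was itself called higher. Gm26578 lies in Nrg1, the neuregulin gene, which had 21.0 ± 4.26 CPM in KO, against 3.87 ± 0.28 CPM in control (edgeR adjusted p = 1.13e-06). Gm26507 lies across Fbn2, the gene of fibrillin-2, with 48.0 ± 11.3 CPM in KO, against 9.53 ± 1.87 CPM in control (edgeR adjusted p = 4.33e-05). The snoRNA Gm25129 lies within Snhg11 on the same strand, and Snhg11 had 108 ± 25.2 CPM in KO, against 2.28 ± 1.54 CPM in control (edgeR adjusted p = 0.000519). Exons of the larger gene covered 10.5% of the exon bases of Gm26578, 9.15% of those of Gm26507 and 0 of those of Gm25129. Reads at positions inside both genes cannot be told apart without the strand setting, nor for Gm25129 with it.

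The members were spread over the genome with a few short runs. Chromosomes 6 and 8 held 10 each, which is 0.491% and 0.684% of their genes silent in control, beside 0.341% over all. X and 13 held 9 each (0.464% and 0.537%) and 15 held 8 (0.765%). The highest share was on chromosome 18, with 4 of 396 (1.01%). Chromosome 19 held 0 of its 491 genes silent in control, a number at which 0 says little. With starts within 200 kb taken as a run, 17 members (15.3%) fell into 8 runs and 94 stood alone. Runs among other genes silent in control were not counted, so that share has no background beside it. Besides the Rhox2 genes and the T cell receptor segments, the runs were Nat1 and Nat3 (starts 42.9 kb apart), Psca and Ly6k of the Ly6 family (82.0 kb), Gm47985 and Gm8947 (9.84 kb), Gm48684 and Gm31452 (29.4 kb), and Gm45051 and Sh2d6 (167 kb). For Gm45051, 70.1% of the exon bases lie in exons of 0610030E20Rik on the other strand. That gene had 29.9 ± 3.10 CPM in KO, against 24.6 ± 2.97 CPM in control. Without the strand setting the reads of Gm45051 cannot be told apart from those of 0610030E20Rik. Gm47985 had 22, 54, 42 and 58 counts in KO 1 to 4 and 7, 4, 0 and 0 in control 1 to 4, and Gm8947 had 19, 22, 12 and 13 counts in KO and 0 in every control library. The longest transcripts of that pair were 98.4% identical over aligned bases, so the split of reads between them is uncertain, whereas those of Nat1 and Nat3 were 71.7% identical and those of Psca and Ly6k 59.4%. Within the Ly6 family, of 13 genes tested 3 were called higher and 3 lower, against 14.8% and 13.1% of all tested genes. Of the 3 called higher, 2 were these members, whose calls carry no further information.

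The genes next to members were not chosen by their own values. The nearest tested non-member gene on each side gave 211 neighbours, of which 56 were called higher in KO (26.5%) and 22 lower (10.4%), against 14.8% and 13.1% of all tested genes. Neighbours overlapping a member can share its reads, and 12 of 29 of these were called higher and 1 lower. Among the 182 that did not overlap, 44 were called higher (24.2%) and 21 lower (11.5%). The share called higher was 13 of 44 (29.5%) with a gap of up to 10 kb and 31 of 138 (22.5%) with a longer gap, and no test over genes was made. The nearest tested gene could lie far off, as for Gm42303 and Gm11263 with a gap of 2838 kb. The 5 called neighbours with the smallest p moved both ways. Psd3, 140 kb from Nat3, had 186 ± 4.26 CPM in KO, against 361 ± 11.2 CPM in control (log2 fold change -1.04, edgeR adjusted p = 1.1e-07). Pde10a, a cyclic nucleotide phosphodiesterase gene 82.9 kb from T, had 20.2 ± 0.30 CPM in KO, against 6.78 ± 0.62 CPM in control (log2 fold change 1.49, adjusted p = 5.3e-07 in the same edgeR fit). T2, on the other side of T and named after its values were seen, fell to 0.309 ± 0.16 CPM in KO, against 2.01 ± 0.33 CPM in control (log2 fold change -2.77, edgeR adjusted p = 8.77e-05). The others were Adgrb2, 21.2 kb from 1700003M07Rik (log2 fold change 1.69), Nrg1 around Gm26578 (2.37) and 2810004N23Rik over Gm16163 (-0.92). Without KO 2 and controls 1 and 2, 31 neighbours were called higher (14.8%) and 13 lower (6.19%), against 8.40% and 7.95% of all genes tested in that fit.

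Promoter windows of 300 bases in RefSeq were matched to 59 members by symbol, with the most upstream window per gene. Most were poor in CpG, like those of genes that stayed silent. The CpG count over that expected from base composition had a median of 0.302 for members, 0.191 for 6743 genes silent in both groups (control mean under 0.1 CPM and every KO library under 0.2 CPM) and 0.754 for 10624 genes with a control mean of 1 CPM or more. The GC share had medians of 51.0%, 46.7% and 60.7% in the same order. A window was called CpG-rich at a ratio of at least 0.6 and a GC share of at least 50%, which held for 5 members (8.47%), 8.33% of the genes silent in both groups and 66.9% of the genes at 1 CPM or more. The 5 were Tcfl5, Ccno, Pld6, T and Gm3696.

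**Figure D5:**
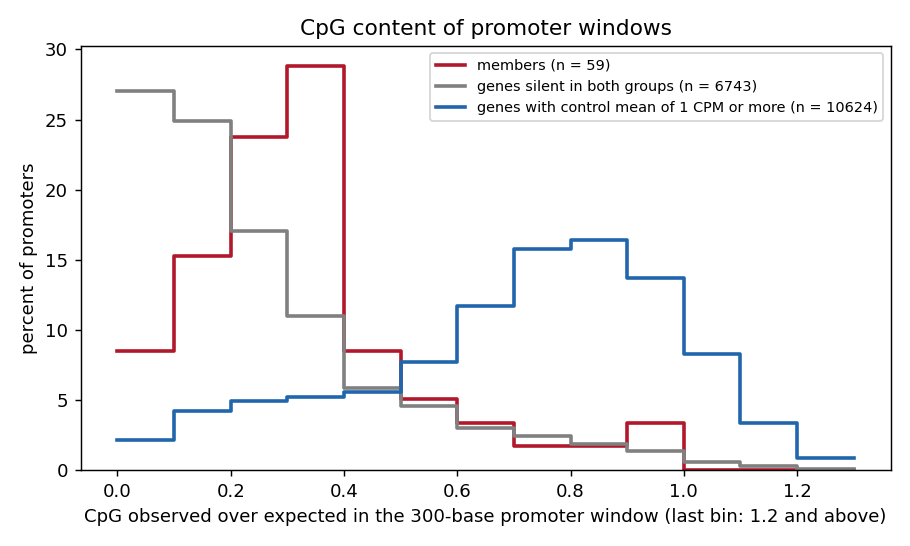
Percent of promoter windows (vertical axis) by the ratio of observed to expected CpG (horizontal axis, bins of 0.1) for members, genes silent in both groups, and genes at 1 CPM or more in control. The median is 0.302 for members, 0.191 for genes silent in both groups and 0.754 for the expressed genes.

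Motifs were searched on both strands of the windows as plain letters. The T-box half-site AGGTGT was in 16 of 59 member windows (27.1%), 17.2% of windows of genes silent in both groups and 13.3% of all 20247 windows, and the windows of Rhox2g and Rhox2h held it while that of Rhox2d did not. The E-box CACGTG was in 8 (13.6%), beside 4.78% and 7.79%. The TATA letters TATAAA were in 9 (15.3%), beside 23.3% and 13.2%, the GATA letters AGATAA in 8 (13.6%), beside 16.0% and 10.3%, and the E2F core GCGGGA in 10 (16.9%), beside 7.30% and 4861 of all 20247 windows. A match is a run of letters and not a bound site.

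Leaving 1 library out of the choice describes how far the list depends on it, and is not a test. Genes that reach 0.2 CPM in the KO library left out are the 111 members again, by the rule. The silent genes set beside them did not have to reach 0.2 CPM in the other KO libraries, so their lower share tests nothing. When the members were chosen on KO 2, 3 and 4 and the controls, 111 of 148 genes reached 0.2 CPM in KO 1, whereas 1.45% of all genes silent in control did, and 3.65% of those with a count in any other library. Leaving out KO 2, KO 3 or KO 4 in the same way, 111 of 120 (92.5%), 111 of 128 (86.7%) and 111 of 129 (86.0%) reached it in the library left out, against at most 1.53% of all genes silent in control and 3.10% to 4.00% of those with a count in any other library. On the control side, the left-out library lay under 0.1 CPM in 66 of 107, 76 of 107, 73 of 122 and 78 of 117 genes for controls 1 to 4, and below every KO library in 106, 106, 113 and 112 of them. In the mirrored direction, chosen without control 1, 2, 3 or 4, 15 of 19, 15 of 33, 15 of 26 and 15 of 16 genes reached 0.2 CPM in the control library left out, and 8 of 15, 7 of 18, 6 of 14 and 7 of 13 stayed under 0.1 CPM in KO 1 to 4 when each was left out.

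At the thresholds the list has no sharp edge. Rem2, Gm15345 and Mat1a had the highest control means inside it, at 0.0999, 0.0998 and 0.0997 CPM, and Mmel1, Iqcf5 and Gm32051 the lowest KO minimum, at 0.206 CPM. Just outside by their control mean were BC028471, Maats1 and Gm45264, at 0.105 CPM. Just outside by their KO minimum were Th, the tyrosine hydroxylase of catecholamine synthesis, at 0.198 CPM, and Nup62cl and Trbv20 at 0.193 CPM.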

How the data were processed

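The authors deposited read counts per gene for 8 libraries, read as not normalised because the values are whole numbers with unequal library totals. The submitters' processing notes name STAR, DESeq2 and build mm10 without versions, and the sources used here give neither the counting step nor its strand setting and annotation. Plain CPM chose the genes. Coordinates and classes came from GENCODE M21 (GRCm38), which lacked 37 of 54532 identifiers, and promoter windows from RefSeq (GRCm38.p6).

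Counts were fitted with edgeR 4.0.16 in R 4.3.3 (filterByExpr, minimum count 10, minimum total 15, TMM scaling, robust quasi-likelihood test, Benjamini-Hochberg adjustment, calls under 0.05), which was checked on simulated data. Alternatives used other scalings, DESeq2 1.42.0, no filter, a replicate block and libraries left out. Intervals and floors cover counting error only. The labels do not say that libraries came from separate mice, and the p-values reflect only how far these samples scatter, which may be technical.

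The members and lists were chosen with earlier results of these data known. Named members were the 20 highest with curated symbols, those within 200 kb of another, up to 4 per list, and the genes at the thresholds; the other members, the second gene of a pair and T2 were chosen after their values were seen. Called neighbours with the 5 smallest p were named too. The values of some genes are not reported here.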

Additional observations from a re-analysis of the deposited data

Results flagged for a closer look

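Among 100 groups of 4 libraries (50 named genes in KO and in control), 11 held a library that stood apart from the other 3 by Dixon's criterion. Chance gives about 1 in 20 for continuous values. Counts in control were few and often tied, so the 11 cannot be set against that rate. In KO this was 2810004N23Rik, with 35.4 CPM in KO 2 against 32.2 to 32.6 CPM in the others. In control, Tcfl5 had 0.321 CPM in control 4 (13 counts) against 0 to 0.0497 CPM, and Psca 0.148 CPM in control 4 (6 counts) against 0 to 0.0251 CPM. Control 3 stood apart at 0.0493 CPM for Gkn2 and Gm31452 (2 counts each, 0 in the others) and at 0.0246 CPM for Chrne (1 count, against 0.0989 to 0.1 CPM). Control 1 stood apart at 0 for Sult2b1 (against 0.124 to 0.148 CPM) and at 0.0502 CPM for Tmem72 (against 0.0246 to 0.0248 CPM). Control 2 stood apart at 0.0497 CPM for Prss51 (against 0.0986 to 0.1 CPM), 0.0248 CPM for Btnl7-ps (0 in the others) and 0 for T (against 0.0246 to 0.0251 CPM). For Tmem72, Btnl7-ps and T the libraries of the group differ by a single count.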

How the results depend on the processing

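The number of genes silent in control and on in KO was 111. It was 45 with a control mean under 0.05 CPM, 43 with every control library under 0.1 CPM, 12 with 0 counts in every control library, 34 at 0.5 CPM or more in each KO library and 318 at 0.1 CPM, and 107 to 148 with a library left out. The mirrored number of 15 was 13 to 33 with a library left out, 33 without control 2, 26 without control 3 and 45 without KO 2 and controls 1 and 2. In that last fit, chosen after seeing the data, edgeR called 1547 genes higher in KO and 1464 lower, and 31 neighbours of members higher and 13 lower. Of 343 non-members with a start within 100 kb of a member, 68 were called higher (19.8%) and 49 lower (14.3%). The nearest neighbours gave 56 of 211 higher (26.5%) and 22 lower (10.4%), and all tested genes 14.8% and 13.1%. The other scalings, the missing filter, DESeq2 and single libraries left out kept these counts of calls within 1.5 times. Correlations of same-numbered deviations ran from -0.056 to 0.303. KO 2 matched control 2 best (0.303), while KO 1, 3 and 4 each matched a control of another number best. With a replicate block, 2474 genes were called higher and 2283 lower, with 53 and 23 neighbours. Counts of under 10 per library limit most members to large differences.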
